A study of Mus musculus with 10 samples.

Results

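The response to a high dose of kainate in hippocampi that carry A-CREB was measured on 4 of the 10 arrays of a mouse study of basal and kainate-induced gene expression. The 4 arrays were the 2 A-CREB pools taken after 18 mg/kg kainate and the 2 A-CREB pools taken after saline, and they were compared within same-numbered pairs. A-CREB mice were labelled TetO-A-CREB-95 C57BL6 F1/J and wild-type mice C57BL6 F1/J, and mice of both genotypes were 3 weeks old. The other 6 arrays held 2 A-CREB pools after 14 mg/kg kainate, 2 wild-type pools after 14 mg/kg kainate and 2 wild-type pools after saline. No wild-type pool received 18 mg/kg, so the dose and the genotype cannot be told apart when the A-CREB response at 18 mg/kg is set against wild type. Each pool was hippocampal RNA of 3 to 4 mice, from 14 wild-type and 20 A-CREB mice in all, so the error behind each p-value is that between pools, not between animals. TetO names a promoter that needs a tetracycline transactivator; the transactivator line, the cells in which it was active, the seizure scores and the time from injection to dissection were absent from the labels read here.

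Kainate is an agonist of kainate-type and AMPA-type glutamate receptors that drives seizure-like firing in the hippocampus. Such firing opens calcium entry and activates kinases, which act on transcription factors already present in the neuron, CREB and SRF among them, and switch on immediate-early genes without new protein synthesis. The first wave encodes mostly transcription factors, feedback inhibitors and synaptic proteins, and a later wave encodes secreted and structural products. CREB binds the cAMP response element (CRE), and A-CREB is a dominant-negative inhibitor that pairs with CREB and keeps it off DNA.

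Levels are the deposited signal of a probe set, an intensity in arbitrary units that the authors had scaled to a common mean on each array. Differences are kainate minus saline on the log2(signal + 22) scale, where 1 is a doubling for a bright gene and less than the true fold for a dim one. Each is given ± its standard error (SE) from limma, with 2 arrays a group. That SE comes from the residual spread of all 10 arrays after allowing for the replicate number, moderated across genes. It is not the spread between the 2 pairs, which for Arc were 1.29 and 4.17 beside an SE of 0.43. A gene was called when its Benjamini-Hochberg adjusted p was under 0.05 and both pairs moved the same way. With 1 array of a comparison left out, only the remaining pair had to move that way, so those counts follow a looser rule. Arrays of replicate 1 had median signals of 94.9 to 106 and those of replicate 2 had 135 to 152. One array stood apart in transcripts of pituitary hormones: growth hormone (Gh) read 9724 on the 18 mg/kg array of replicate 2 and from 40.5 to 1233 on the other 9 arrays. The hormone subunit Cga read 1007 there against 4.71 to 36.4 elsewhere, and the values of Pomc, 1103 against 79.3 to 591, and Tshb, 377 against 18.5 to 99.4, were also highest on it. This was noticed after the values were examined, so the counts of risen genes and list members below are also given without this array. In whole tissue, fewer cells of a type and less RNA per cell cannot be told apart.

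After 18 mg/kg kainate the A-CREB hippocampus held more RNA of immediate-early transcription factors (Npas4, Fosb, Fos, Atf3) and of synaptic and secreted products (Arc, Homer1, Inhba, Bdnf). RNA of the inducible cyclooxygenase Ptgs2 and of feedback inhibitors (Dusp1, Errfi1, Rgs2) was also higher, and very few genes fell. Of 13218 genes tested, 89 rose (0.673%) and 3 fell (0.0227%) in limma with the replicate number as a block. At an unadjusted p under 0.05 there were 1182 genes, against 661 if no gene differed. Without the block 31 rose (0.235%), all of them among the 89, and 0 fell; unadjusted, 369 genes had a p under 0.05. Without the 18 mg/kg array of replicate 2, 34 genes rose, of which 33 were among the 89, and 1 fell; every one of the 89 kept a positive difference there, with a median of 1.22 against 1.53 with all arrays. For 88 of the 89 both kainate arrays lay above both saline arrays, a pattern that 12.4% of the tested genes showed, and the exception was Tsc22d2. The 89 were chosen on these same arrays by a small p and a rise in both pairs. That choice largely sets this count and the kept signs, so they are no separate support. A rise of at least 2-fold in both pairs was seen in 71 genes (0.537%), 60 of them among the 89, while over all genes the median difference was 0.0017.

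**Figure D1:**
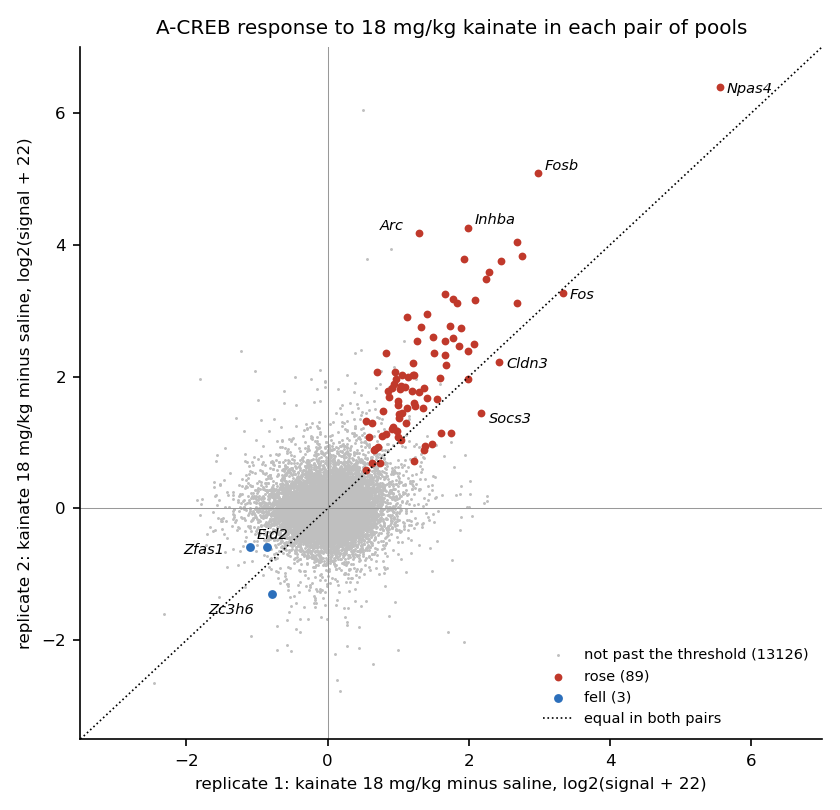
Each point is a gene, placed by its difference between kainate 18 mg/kg and saline in A-CREB pools, log2(signal + 22), in replicate 1 (horizontal) and replicate 2 (vertical), with the 89 risen genes in red, the 3 fallen in blue and the dotted line marking equal differences. Npas4 stands farthest out at 5.55 and 6.40, and 77 of the 89 red points lie above the dotted line.

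Transcription factors of the first wave led the response. Npas4, a neuronal activity-dependent factor, read 160.1 and 148 after saline and 8526 and 14293 after kainate. Its level was low on both saline arrays and high on both kainate arrays, and its difference of 5.97 ± 0.23 (limma adjusted p = 5.75e-09) was a 62.9-fold rise, the largest of all tested genes. The gene lists used from here on were chosen with earlier results of these data known, so their counts describe the members and do not test a list. The share to set beside each count of risen members is the 0.673% of all tested genes that rose. Of 6 AP-1 subunits measured, 5 rose (Fosb, Fos, Junb, Fosl2 and Jun), with a list median of 2.19, and Jund, at 0.21, did not pass. Fosb, whose product joins Jun proteins in the AP-1 dimer, read 191 and 118 after saline and 1653 and 4731 after kainate, a difference of 4.03 ± 0.35. Fos, the classic marker of recent neuronal firing, read 1493 and 1688 after saline and 15194 and 16466 after kainate and differed by 3.30 ± 0.17 (limma adjusted p = 1.96e-07). The Fos rise was nearly equal in both pairs, 3.33 and 3.27, whereas that of Fosb was 2.98 and 5.09. Junb differed by 2.48 ± 0.30, Fosl2 by 1.90 ± 0.23 and Jun by 1.38 ± 0.24, and without the 18 mg/kg array of replicate 2 the subunits past the threshold were 4, all but Jun.

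All 4 zinc-finger factors of the Egr family rose, and both Nab corepressors of Egr proteins did not pass, at 0.20 for Nab1 and 0.15 for Nab2. Egr2 read 163 and 181 after saline and 682 and 2762 after kainate, a difference of 2.86 ± 0.38, which was the largest of the family. Egr1 was already bright after saline, 8501 and 4429, and reached 18198 and 16006 after kainate, a difference of 1.47 ± 0.18. Egr4 differed by 1.47 ± 0.23 and Egr3 by 1.25 ± 0.22. The other probe set of Egr2 gave 3.48 and that of Egr3 gave 0.74. None of the 4 passed without the block, and without the 18 mg/kg array of replicate 2 the ones that passed were 2, Egr1 and Egr2. The Nr4a orphan nuclear receptors, which bind DNA without a known natural ligand, rose in all 3 members. Nr4a1 read 2098 and 1644 after saline and 5291 and 11169 after kainate and differed by 2.04 ± 0.28. Nr4a2 differed by 1.71 ± 0.21 and Nr4a3 by 1.42 ± 0.18, and the 3 also passed without that array, with a median of 1.24. Further probe sets of Nr4a2 gave 1.69 to 1.78, and the other one of Nr4a3 gave 0.57.

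Among 24 genes listed as other inducible transcription regulators, a list that also held the F-box gene Fbxo33, 9 rose, Npas4 included. Atf3, a bZIP factor induced by stress and activity, read 87.4 and 90.6 after saline and 677 and 1833 after kainate, a difference of 3.36 ± 0.34 (limma adjusted p = 1.72e-04). Its mean signal after saline was under 100, so the log2 scale understates its fold. Klf4, a Krüppel-like factor, read 257 and 281 after saline and 903 and 2044 after kainate, and Ier2, a short-lived nuclear protein, read 323 and 215 after saline and 1603 and 2625 after kainate. They differed by 2.25 ± 0.29 and 2.86 ± 0.34, with no overlap between saline and kainate arrays in either. Maff, a small Maf protein, differed by 2.18 ± 0.39, the bZIP repressor Nfil3 by 2.01 ± 0.35, Csrnp1 by 1.78 ± 0.21 and Fbxo33 by 1.57 ± 0.21. Crem, whose inducible short form represses CRE-driven genes, is taken up below with the CREB family. The 15 that did not pass included Per1, Myc, Srf and Klf10, and the median of all 24 was 0.61. Without the 18 mg/kg array of replicate 2 the risen members were 6, and without the block 5.

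**Figure D2:**
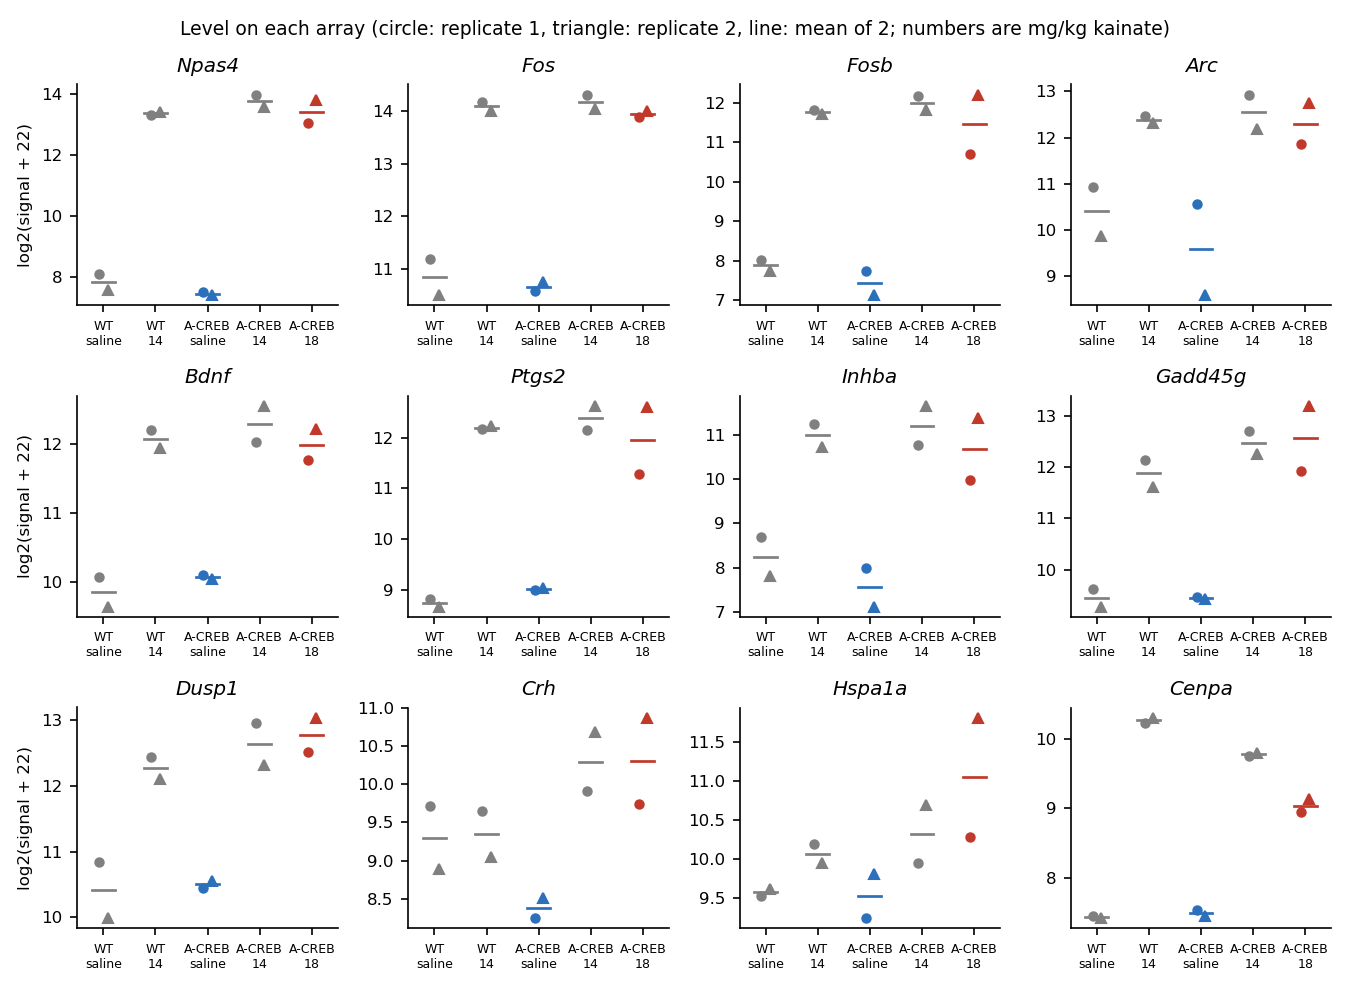
Level of 12 genes as log2(signal + 22) on each of the 10 arrays, by group, with circles for replicate 1, triangles for replicate 2 and a line at the mean of 2; saline A-CREB arrays are blue and 18 mg/kg A-CREB arrays red. For Npas4, Fos and Ptgs2 the kainate arrays lie above the saline arrays in every group, Arc differs widely between the saline arrays, and Crh is flat in wild type, where it differed by 0.051.

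Genes listed as synaptic or secreted, with the enzyme Ptgs2 among them, formed the second group. Of 24 measured members 10 rose, with a median over the list of 0.71. Arc, which drives removal of AMPA receptors from synapses, read 1494 and 359.9 after saline and 3682 and 6872 after kainate. The replicate 1 saline array read far higher than the replicate 2 one in Arc, and its difference of 2.73 ± 0.43 was made of 1.29 in replicate 1 and 4.17 in replicate 2; it did not pass without the block (limma adjusted p = 0.241) or without the 18 mg/kg array of replicate 2 (0.0793). Homer1, a postsynaptic scaffold, read 1465 and 1152 after saline and 6309 and 10497 after kainate on its brightest probe set, a difference of 2.63 ± 0.31. A further probe set of the gene gave 2.57, while 4 others gave -0.39, -0.18, 0.03 and 0.49, so the gene's probe sets did not move together. Pcdh8, an activity-induced protocadherin, read 3720.3 and 4715 after saline and 10976 and 14928 after kainate and differed by 1.61 ± 0.13. Its pair values were 1.56 and 1.66.

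Inhba, the subunit of activin A, read 233 and 117 after saline and 989 and 2642 after kainate, a difference of 3.12 ± 0.43. Ptgs2, the inducible cyclooxygenase, read 490.3 and 502 after saline and 2463 and 6252 after kainate, a difference of 2.93 ± 0.26 (limma adjusted p = 7.22e-05). The saline arrays were close to each other for Ptgs2, and the kainate arrays differed more than they did. Bdnf, the neurotrophin most tied to activity, read 1069 and 1032 after saline and 3452 and 4748 after kainate. It differed by 1.92 ± 0.21 (limma adjusted p = 2.73e-04), and its other tested probe set gave 1.34. Ccn1, a matricellular protein, differed by 3.29 ± 0.39, and its 3 other probe sets gave 3.00 to 3.91. Pcsk1, a prohormone convertase, differed by 1.32 ± 0.24. Without the 18 mg/kg array of replicate 2, 6 members passed in place of 10. Nptx2, a secreted pentraxin that clusters AMPA receptors, was picked out after its values were seen: it read 766 and 139 after saline and 1439 and 2434 after kainate, and its difference of 2.41 ± 0.53 did not pass (limma adjusted p = 0.0586).

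Feedback inhibitors of kinase and G-protein signalling rose alongside. Dusp1, a nuclear phosphatase of MAP kinases, read 1379 and 1478 after saline and 5868 and 8428 after kainate and differed by 2.28 ± 0.24 (limma adjusted p = 2.73e-04). Errfi1, which blocks EGF receptor kinase activity, read 1765 and 1979 after saline and 6475 and 10983 after kainate and differed by 2.16 ± 0.20 (limma adjusted p = 9.93e-05). Saline and kainate arrays were well apart for both. Of the 16 phosphatases and brakes 5 rose, the others being the ERK phosphatases Dusp5 (1.59 ± 0.34), Dusp6 (1.32 ± 0.27) and Dusp4 (0.94 ± 0.19). No Sprouty or Spred gene passed, and Spry2 came closest at 0.69 (limma adjusted p = 0.0570). Without the 18 mg/kg array of replicate 2 the members past the threshold were Dusp1 and Errfi1.

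Small GTPases and Rgs proteins gave 6 risen of 11. Gem, a Ras-like inhibitor of calcium channels, read 136 and 84.2 after saline and 543 and 895 after kainate, a difference of 2.47 ± 0.27. Rgs2, which shortens Gq signalling, read 2125 and 2113 after saline and 6745 and 12365 after kainate, a difference of 2.10 ± 0.21 (limma adjusted p = 1.52e-04). For both genes the kainate arrays lay far above the saline arrays. Rasl11a differed by 1.62 ± 0.26, Rgs4 by 1.33 ± 0.14, Rasl11b by 0.66 ± 0.13 and Rheb, the activator of mTOR complex 1, by 0.56 ± 0.12, the smallest rise of the 89. Gem, Rgs2 and Rgs4 also passed without the 18 mg/kg array of replicate 2. Of 9 inducible kinases 2 rose, Pim1 (1.53 ± 0.22) and Pim3 (1.13 ± 0.19), neither of which passed without that array, while Plk2 at 0.81 (limma adjusted p = 0.0758) and Sgk1 at 0.76 (0.135) did not pass. The other probe set of Pim1 gave 0.54, and both other probe sets of Pim3 gave 0.25.

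Growth-arrest and mRNA-decay genes gave 6 risen of 16. Gadd45g, of the family that links stress to growth arrest and DNA demethylation, read 690.4 and 667 after saline and 3871 and 9294 after kainate, a difference of 3.10 ± 0.31. Gadd45b read 561 and 349 after saline and 1829 and 3499.7 after kainate, a difference of 2.46 ± 0.29, and Gadd45a, at 0.18, did not pass. Btg2, an antiproliferative protein that recruits the deadenylase, read 499 and 683 after saline and 3326 and 6078 after kainate. Its difference of 2.90 ± 0.40 was 2.69 in replicate 1 and 3.11 in replicate 2. Cenpa, the centromeric histone, differed by 1.54 ± 0.17, Ppp1r15a, which restarts translation after stress, by 1.28 ± 0.24, and Zfp36, which destabilises AU-rich mRNAs, by 1.28 ± 0.25. Gadd45g, Gadd45b and Cenpa passed without the 18 mg/kg array of replicate 2, and Btg2 did not (0.0582, limma adjusted p).

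CREB targets were among the risen genes, with A-CREB carried by both groups compared. Of 30 genes on a list of classic CREB targets 20 rose, against 0.673% of all genes, with a median of 1.59. The list was chosen with earlier results of these data known, so this share describes its members and is no support for a rise of CREB targets as a class. Members that rose and have not yet been described were Scg2, a granin (0.98 ± 0.18), Crh (1.94 ± 0.36) and Crem (1.08 ± 0.21). The 10 that did not pass were Tac1, Per1, Noct, Vgf, Penk, Sst, Pdyn, Cort, Ppargc1a and Sik1, from 0.50 for Tac1 to -0.34 for Sik1. Without the 18 mg/kg array of replicate 2 the count was 14 with a median of 1.20, and without the block it was 12. Of 11 members of the CREB family and its coactivators, Crem and Atf4 (0.79 ± 0.15) rose and none fell. Neither passed without the 18 mg/kg array of replicate 2 (limma adjusted p = 0.428 and 0.415) or without the block. Creb1 itself read 2006 and 1872 after saline and 2307 and 1605 after kainate, a difference of -0.0096 ± 0.17, and its arrays overlapped, and whether this probe set reads the A-CREB transcript is not known here.

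Promoter windows from RefSeq (GRCm38.p6), 250 bases before to 50 after a gene's start, were found for 74 of the 89 risen genes and read for 3 motifs on both strands. The full palindromic CRE, TGACGTCA, was in 8 of the 74 (10.8%, exact 95% interval 4.78% to 20.2%), in 3.40% of 10656 tested genes and in 2.03% of all 27025 windows. The shorter core TGACG, which each full CRE also contains on either strand, was in 46 of the 74 (62.2%), in 34.2% of tested genes and in 23.0% of all windows. The AP-1 motif TGANTCA was in 5 of the 74 (6.76%), in 6.22% of tested genes and in 8.97% of all windows. A match describes these letters in this window and is neither a shown binding site nor a cause. Genes with a full CRE were Btg2, Dusp1, Maff, Errfi1, Ch25h, Pcsk1, Ppp1r15a and Scg2. The 4 of them with the largest rises are shown as the 250 bases before the start, written 5′ to 3′ on the gene's strand with the CRE in capitals. It lies 166 bases before the start in Btg2 (chr1:134079156-134079405, minus strand), 143 in Dusp1 (chr17:26508473-26508722, minus), 29 in Maff (chr15:79347270-79347519, plus) and 51 in Errfi1 (chr4:150854820-150855069, plus).
Btg2: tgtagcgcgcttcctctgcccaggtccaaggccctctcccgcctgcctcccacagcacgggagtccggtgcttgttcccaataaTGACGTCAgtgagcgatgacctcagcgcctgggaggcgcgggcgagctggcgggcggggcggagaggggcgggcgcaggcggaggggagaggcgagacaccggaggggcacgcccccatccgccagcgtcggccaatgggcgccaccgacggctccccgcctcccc
Dusp1: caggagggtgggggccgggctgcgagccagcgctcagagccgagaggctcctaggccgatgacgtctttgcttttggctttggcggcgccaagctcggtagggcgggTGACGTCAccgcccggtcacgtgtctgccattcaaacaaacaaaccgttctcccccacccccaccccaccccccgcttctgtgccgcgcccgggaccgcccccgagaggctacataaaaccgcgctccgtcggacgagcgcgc
Maff: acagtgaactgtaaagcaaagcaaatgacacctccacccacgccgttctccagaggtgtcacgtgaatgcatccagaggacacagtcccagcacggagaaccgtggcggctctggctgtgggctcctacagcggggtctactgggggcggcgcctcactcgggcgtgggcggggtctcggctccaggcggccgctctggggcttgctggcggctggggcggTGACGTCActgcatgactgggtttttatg
Errfi1: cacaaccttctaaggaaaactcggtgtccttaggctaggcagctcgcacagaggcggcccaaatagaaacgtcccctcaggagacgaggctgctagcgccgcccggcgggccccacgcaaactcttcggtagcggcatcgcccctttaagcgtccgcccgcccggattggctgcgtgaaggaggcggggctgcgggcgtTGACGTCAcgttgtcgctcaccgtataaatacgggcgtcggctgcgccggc
Npas4 (chr19:4989972-4990221, minus strand) and Fos (chr12:85473640-85473889, plus), which had the smallest adjusted p, are shown for their copies of the core. Neither window holds a full CRE, and each holds the core in 2 places, in capitals and read on either strand (CGTCA is the core on the opposite one), at 179 and 169 bases before the start in Npas4 and at 129 and 66 in Fos.
Npas4: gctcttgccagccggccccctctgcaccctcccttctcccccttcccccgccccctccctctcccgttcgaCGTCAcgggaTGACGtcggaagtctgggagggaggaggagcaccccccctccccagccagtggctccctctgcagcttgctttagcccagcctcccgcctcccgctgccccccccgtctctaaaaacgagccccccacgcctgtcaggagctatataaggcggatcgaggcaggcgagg
Fos: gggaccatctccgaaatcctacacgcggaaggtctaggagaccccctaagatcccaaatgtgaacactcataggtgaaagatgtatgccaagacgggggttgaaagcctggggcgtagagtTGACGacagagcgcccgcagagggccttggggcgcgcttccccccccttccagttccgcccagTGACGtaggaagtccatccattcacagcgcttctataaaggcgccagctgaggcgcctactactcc
In these 6 windows the distance from the motif to the start varied widely, and no window was found for Arc, Ier2, Gem or Crh.

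Of 21 neuropeptides and granins measured, Crh, Scg2 and Nts (0.84 ± 0.17) rose, a share of 14.3% against 0.673% of all genes. Crh, corticotropin-releasing hormone, read 281 and 343 after saline and 838 and 1859 after kainate, with both kainate arrays above both saline arrays. The other 18 lay between -0.29 and 0.66, among them Npy, Sst, Penk and Tac1, and none of the 3 risen passed without the 18 mg/kg array of replicate 2. Growth factors and their receptors gave Bdnf alone of 11. Of 12 cytokine and Socs genes, Nfkbiz, a nuclear IκB protein, read 237 and 339.5 after saline and 863 and 2143 after kainate (2.18 ± 0.26), and Socs3, which limits cytokine receptor signalling, read 91.0 and 206 after saline and 489 and 601 after kainate (1.81 ± 0.27). Socs3 did not pass without the 18 mg/kg array of replicate 2 (limma adjusted p = 0.0506) or without the block (0.135), and Nfkbiz passed in both. Socs3 had the larger change in replicate 1, 2.18 against 1.45, while its 2 other probe sets had the larger change in replicate 2 (2.26 and 1.94). Ccl3 and Ccl2 differed by 1.43 and 1.23 with limma adjusted p of 0.408 and 0.412; Ccl2 differed by 2.26 in replicate 1 and 0.19 in replicate 2.

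Chaperones of the cytosol gave 3 risen of 15. Hspa1a, inducible Hsp70, read 579.9 and 869.8 after saline and 1225 and 3587 after kainate, a difference of 1.53 ± 0.29. The replicate 2 kainate array was far above the other 3. Its near-identical neighbour Hspa1b read 1539 and 2527 after saline and 2444 and 7885 after kainate, a difference of 1.15 that did not pass (limma adjusted p = 0.143), and the signals of the 2 copies are uncertain because these probes may read both. The Hsp70 cochaperones Dnajb1 and Dnajb4 differed by 1.41 ± 0.26 and 0.94 ± 0.17. None of the 3 passed without the block or without the 18 mg/kg array of replicate 2. Among 17 chaperones of the endoplasmic reticulum limma called 0 (6 at an unadjusted p under 0.05, where 8.94% of all genes were), with 12 of them higher in both pairs, against 25.4% of all genes, and a median of 0.25. Hspa5, the main one, read 6812 and 7266 after saline and 10909 and 10963 after kainate, a difference of 0.63 ± 0.16 (limma adjusted p = 0.148).

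Of the 89 risen genes, 32 were on no list, and of these 3 passed without the 18 mg/kg array of replicate 2 and 5 without the block. Cldn3, Neat1, Apold1 and Tmem252, described next, passed in neither (limma adjusted p without that array 0.183, 0.133, 0.0978 and 0.407). Cldn3, a tight-junction protein, read 13.4 and 45.3 after saline and 168 and 292 after kainate. It was dim on both saline arrays, and its other 2 probe sets gave 0.53 and 0.24, against 2.32 ± 0.38 for the brightest. Neat1, the long RNA that builds paraspeckles, read 114 and 52.8 after saline and 479 and 475 after kainate, a difference of 2.31 ± 0.35, and its other probe set gave 0.45. Ifrd1, a transcription cofactor, read 975 and 1097 after saline and 3924 and 5846 after kainate, a difference of 2.19 ± 0.21 (limma adjusted p = 9.93e-05), and it passed under every alternative run. Tiparp, an ADP-ribosyltransferase, differed by 2.04 ± 0.28 and gave 1.84 and 1.79 on 2 further probe sets. Apold1, an endothelial early-response gene, differed by 1.98 ± 0.29, and Tmem252 by 1.99 ± 0.36 from a dim saline level of 23.5 and 18.1. Regulators of glycogen-bound phosphatase rose in Ppp1r3g (1.51 ± 0.27) and Ppp1r3c (0.77 ± 0.14). Others were the imprinted gene Mest (1.62 ± 0.18), cholesterol 25-hydroxylase Ch25h (1.45 ± 0.24), the metalloprotease Adamts1 (1.41 ± 0.27), the kinase anchor Akap12 (1.37 ± 0.21), the coenzyme Q protein Coq10b (1.22 ± 0.16), the monocarboxylate transporter Slc16a1 (0.71 ± 0.15) and the lipopolysaccharide coreceptor Cd14 (0.97 ± 0.20). The remaining 17 differed by 0.82 (Grasp) to 1.60 (Crispld2).

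Among 20 glutamate receptor subunits, 10 GABA receptor subunits, 26 potassium channels and 19 calcium, sodium and HCN channels, limma called 0 at an adjusted p under 0.05, and 8 of the 75 (10.7%) had an unadjusted p under 0.05, against 8.94% of all genes. Their list medians were -0.14, -0.093, -0.13 and -0.19, against 0.0017 over all genes. Grik5, a kainate receptor subunit, read 1704 and 799 after saline and 781 and 644 after kainate, a difference of -0.70 ± 0.21 (limma adjusted p = 0.269). Scn3a, a sodium channel, read 642 and 1057 after saline and 539 and 451 after kainate, a difference of -0.72 ± 0.26 (0.434), and Gabra2 differed by 0.73. On the replicate 1 saline array the summed signal of 6 pyramidal neuron markers was 30576 against 20855 on the other saline array and 19137 and 20642 after kainate, and its part in these values was not tested. Without the replicate 1 saline array the 4 medians were -0.017, 0.013, -0.067 and -0.021. Clock genes (16, median 0.087) and late repressors (19, median -0.026) also gave 0 calls in limma, with 2 and 1 members at an unadjusted p under 0.05.

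**Figure D3:**
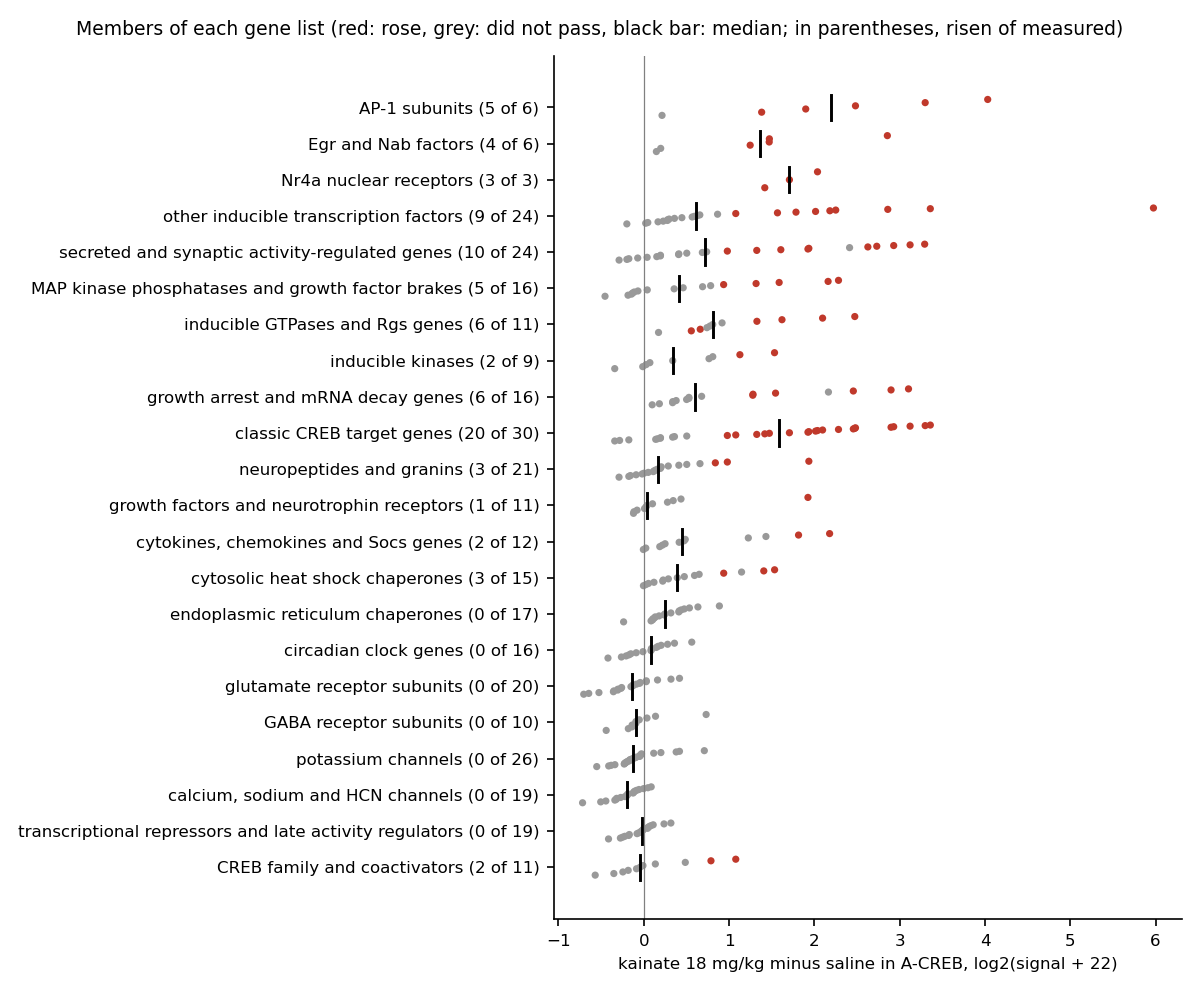
Each point is a measured member of one of 22 gene lists, placed by its difference between kainate 18 mg/kg and saline in A-CREB, log2(signal + 22); red members rose, grey did not pass, and the bar is the median of the list. AP-1, Egr, Nr4a and classic CREB target lists have most members in red, and the receptor and channel lists have none.

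The 3 fallen genes were small in effect. Zc3h6, a zinc-finger protein, read 476 and 674 after saline and 267 and 261 after kainate, a difference of -1.04 ± 0.21 (limma adjusted p = 0.0361). Zfas1, a host RNA of small nucleolar RNAs, read 2521 and 1841 after saline and 1170.1 and 1214 after kainate, a difference of -0.84 ± 0.17 (0.0421). Eid2, an inhibitor of p300, read 3193 and 1551 after saline and 1751 and 1029.8 after kainate, a difference of -0.72 ± 0.14 (0.0300). Saline and kainate arrays did not overlap for Zc3h6 and Zfas1, and they did for Eid2, whose replicate 1 kainate array lay above its replicate 2 saline array. None of the 3 passed without the block, without the replicate 1 saline array or with either 18 mg/kg array left out, whereas 84 genes fell without the replicate 2 saline array and 10 without the replicate 1 kainate array. At 14 mg/kg in A-CREB the differences were -1.18 for Zc3h6, -0.73 for Zfas1 and -0.38 for Eid2, and in wild type -0.65, 0.49 and -0.007.

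Larger mean decreases did not pass. A decrease of at least 2-fold in both pairs was seen in 5 genes (0.0378%), which were 2010109A12Rik, Aars2, Mycl, Slc16a3 and Bbc3. Aars2, the mitochondrial alanyl-tRNA synthetase, read 281 and 202 after saline and 38.9 and 52.1 after kainate, a difference of -1.96 ± 0.45 (limma adjusted p = 0.0797). Mycl, a Myc family factor, read 526 and 431 after saline and 235 and 97.0 after kainate, a difference of -1.51 ± 0.35 (0.0935). Bbc3, the proapoptotic protein PUMA, read 399 and 283 after saline and 165 and 111 after kainate, a difference of -1.18 ± 0.33 (0.228). In each the saline arrays lay above the kainate arrays. The 7 further genes with the largest mean decreases, among genes lower by at least 0.5 in both pairs and with an unadjusted p under 0.05, were Plppr3, Ntn5, Gpr75, Plcd3, Islr2, Cchcr1 and Dmbx1, at -1.14 to -1.43.

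The order of the doses was not the same in the 2 pairs. Among the 89 genes, which were chosen at 18 mg/kg, the median difference from saline was 1.53 at 18 mg/kg and 1.85 at 14 mg/kg in A-CREB, and 75 of the 89 were higher at 14 than at 18 mg/kg, against 45.3% of all genes. In replicate 1 alone 87 of the 89 were higher at 14 mg/kg, with medians of 1.23 at 18 and 1.90 at 14 mg/kg. In replicate 2 alone 33 were, with medians of 1.86 and 1.75, and 33 genes were higher at 14 mg/kg in both. Without the 18 mg/kg array of replicate 2 the count was 85, and without that of replicate 1 it was 28. Both A-CREB comparisons use the same saline arrays. In the direct comparison of the doses limma called 0 genes (399 at an unadjusted p under 0.05, 75 without the block, against 661 if no gene differed). Cenpa came lowest in p among the 89: it read 472 and 537 at 18 mg/kg and 843 and 868 at 14 mg/kg, a difference of -0.74 ± 0.17 (limma unadjusted p = 6.88e-04, adjusted p = 0.9998). Npas4 read 8526 and 14293 at 18 and 16278 and 12169.7 at 14 mg/kg, so its order turned between the pairs. It differed from saline by 5.97 and 6.32, and Arc by 2.73 and 2.99. Hspa1a went the other way, 1.53 against 0.80. These two-sided tests on 2 arrays a group do not show that the doses act alike. With either 18 mg/kg array left out the dose comparison also called 0 genes.

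The comparison with wild type differs in dose as well as genotype. In it limma called 0 genes (550 at an unadjusted p under 0.05, 105 without the block, against 661 if no gene differed). The 89 genes were chosen in A-CREB at 18 mg/kg, which favours larger differences there. Of the 89, 66 had the larger difference in A-CREB, by a median of 0.20, against 55.9% of all genes. The count was 42 in replicate 1 alone, 72 in replicate 2 alone, and 29 without the 18 mg/kg array of replicate 2, where the median turned to -0.14; without that of replicate 1 it was 81. The test called 1 gene without the replicate 1 wild-type saline array and 3 without the replicate 1 wild-type kainate array. Crh read 820.3 and 450.3 after saline and 784 and 508 after 14 mg/kg kainate in wild type and differed by 0.051 there, against 1.94 in A-CREB at 18 mg/kg and 1.92 at 14 mg/kg. The summed signal of 8 striatal markers was 22166 on the replicate 2 wild-type kainate array and 10561 at most on the others, and its part in the wild-type values was not tested. The saline level of Crh was higher on both wild-type arrays than on both A-CREB arrays. Cldn3 differed by 0.59 in wild type, Tmem252 by 0.54, Crispld2 by 0.12 and Hps1 by 0.22, against 2.32, 1.99, 1.60 and 1.16. The wild-type pairs were of opposite sign for Cldn3 (-0.29 and 1.47) and Crispld2 (0.74 and -0.50). Mean saline signals in A-CREB and wild type were 29.3 and 132 for Cldn3 and 20.8 and 70.8 for Tmem252. After kainate, at 18 mg/kg in A-CREB and 14 mg/kg in wild type, the means were 230 and 217 for Cldn3 and 151 and 121 for Tmem252. Cenpa had the larger difference in wild type, 2.84 against 1.54. At their own thresholds 145 genes rose (1.10%) and 22 fell (0.166%) in A-CREB at 14 mg/kg, and 82 rose (0.620%) and 12 fell (0.0908%) in wild type.

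**Figure D4:**
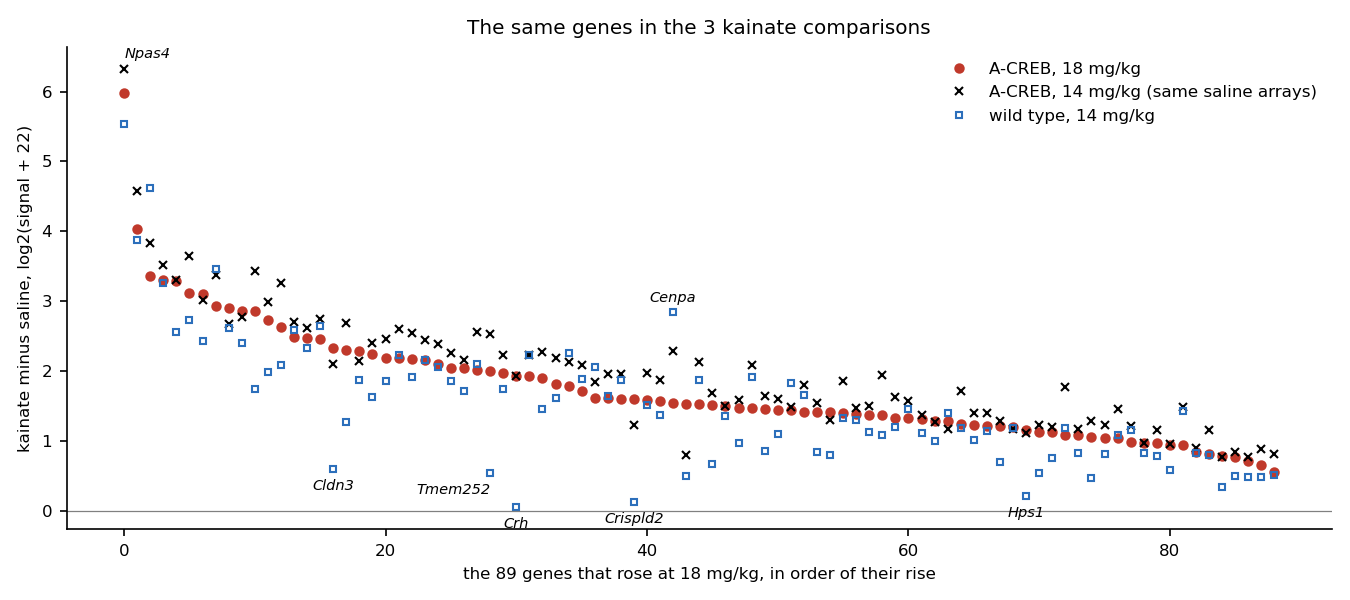
The 89 genes that rose at 18 mg/kg, ordered by that rise (horizontal), with their difference from saline, log2(signal + 22), in A-CREB at 18 mg/kg (red circles), A-CREB at 14 mg/kg (black crosses) and wild type at 14 mg/kg (blue squares). Crosses lie above circles for 75 of the 89 (87 in replicate 1 alone and 33 in replicate 2 alone). The wild-type means of Crh and Crispld2 lie near 0, and the wild-type pairs of Crispld2 were 0.74 and -0.50.

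The kainate pools differed from each other in most risen genes. On the replicate 2 array of 18 mg/kg, 83 of the 89 genes were higher than on replicate 1, by a median of 0.61, while 49.8% of all tested genes were. Between the 2 A-CREB saline arrays 45 of the 89 were higher on replicate 2, and between the 14 mg/kg arrays 36. The array with the larger response is the one that carried pituitary transcripts, and their part in the difference was not tested. The 90 measured marker genes of 11 cell types or tissues gave 0 calls in limma at an adjusted p under 0.05 (10, or 11.1%, at an unadjusted p under 0.05). The 10 dentate granule cell markers summed to 15072 and 14732 after saline and 13479.6 and 12682 after kainate. Of these 10, 6 were lower in both pairs and 0 higher in both, against 25.5% and 25.4% of all genes, with a median difference of -0.20. The 11 microglial markers summed to 18726 and 23924 after saline and 23260.5 and 26649 after kainate, with 8 of 11 higher in both pairs, against 25.4% of all genes, and a median difference of 0.22. Choroid plexus markers were 33778 and 26927 after saline and 40362 and 25097 after kainate, so they moved in opposite directions in the 2 pairs. Interneuron, astrocyte and oligodendrocyte sums overlapped between groups, and whether these shifts bear on the gene results was not tested.

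**Figure D5:**
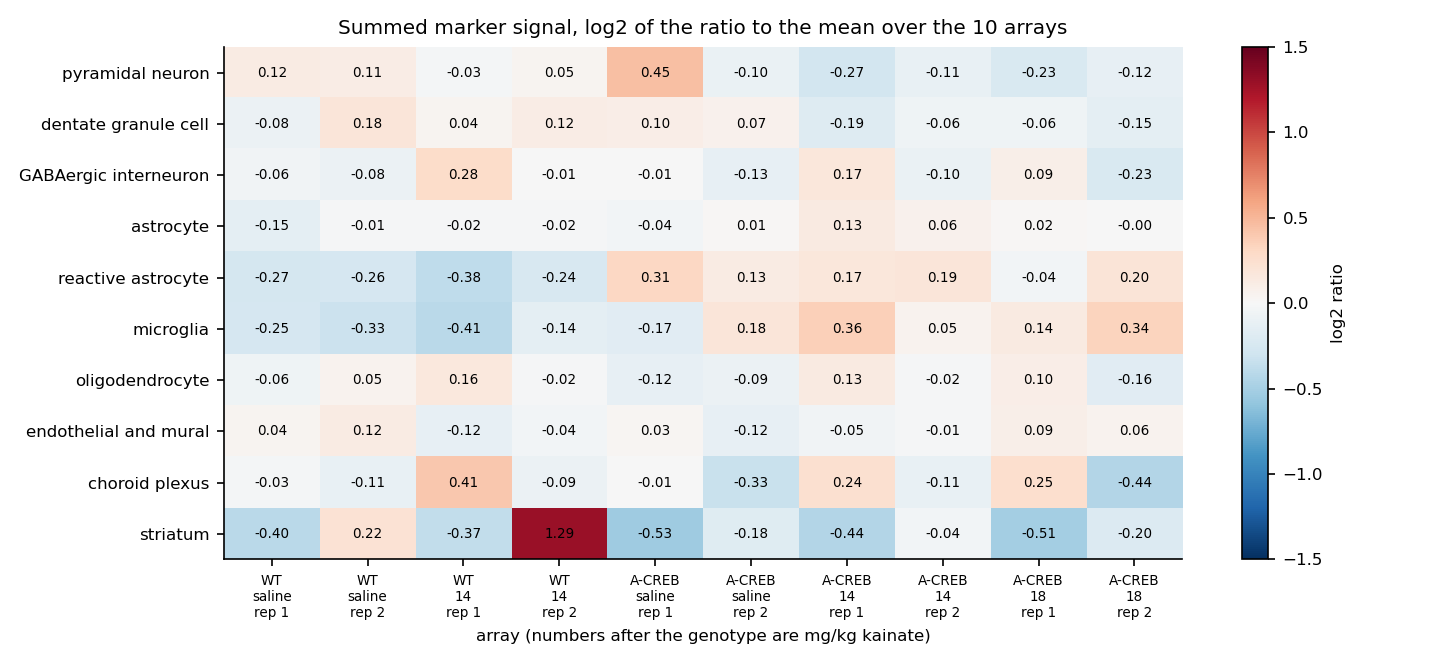
Summed signal of the markers of 10 cell types or tissues on each of the 10 arrays, as the log2 ratio to the mean over arrays; blood is left out because 2 of its 6 markers were measured. The replicate 1 saline A-CREB array is highest for pyramidal neuron markers (0.45), and the 18 mg/kg replicate 2 array is lowest for choroid plexus markers (-0.44).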

How the data were processed

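Each of the 10 arrays (Affymetrix Mouse430_2) held pooled hippocampal RNA, per the labels. Intensity is the unit of the deposited values, the MAS5 signal of a probe set; per the submitters' processing notes the authors used MAS5 and GCOS, with versions and background settings not given in the sources used here. The 2% trimmed mean was 500.002 to 500.003 on each array, and no signal was negative.

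Of 45101 probe sets, 64 controls were left out and 34945 named 1 gene. Signals were taken as log2(signal + 22). Probe sets in the upper 60% by mean were tested, and a gene was represented by its brightest, giving 13218 genes. All 10 arrays were fitted together in R 4.3.3, using limma 3.58.1 with a mean-variance trend in eBayes, two-sided tests and Benjamini-Hochberg adjustment within each of 5 comparisons. The replicate number was a block, leaving 4 residual degrees of freedom; what a number marks is not in the labels. Same-numbered arrays deviated together, with correlations of 0.518 to 0.642 over 10 pairs of groups, and each of the 10 arrays had its highest correlation with an array of its own number, so the numbers were taken to pair the arrays. No pair of arrays was identical.

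Tested on simulated data of this comparison, with 13218 genes of which 200 were changed, the fit found 54.6% of changes of log2 1 and 92.2% of log2 2, with 6.6 false calls a run (without the block 20.2%, 71.2% and 0.2). The simulated arrays had the same replicate effect in every group and independent normal noise, so the block was right by construction. These values therefore do not show how many calls on the real arrays are false or which fit suits them. Named genes were the 30 largest rises, the falls and the largest falls not passing (15 in all; unadjusted p under 0.05 and at least 0.5 lower in both pairs), up to 5 members of each list by p, and Creb1; other genes named were chosen after their values were seen. The members and lists were chosen with earlier results of these data known. Alternatives changed the pseudocount, filter, scaling, block, arrays fitted, trend, robust eBayes, probe set rule and each array in turn; the pituitary genes, scaling of the replicate counts list counts without 1 array, and the dose and wild-type counts within pairs and without 1 array were added after seeing the data.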

Additional observations from a re-analysis of the deposited data

How the results depend on the processing

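With the replicate block taken out, 31 genes rose and 0 fell. The rise of 89 genes became 46 with no filter on dim probe sets, where 0 fell, and 18 with no intensity trend, where 0 fell; it ran from 34 to 99 with 1 array left out, lowest without the 18 mg/kg array of replicate 2. The count of 3 falls became 5 with the upper 40% of probe sets, 1 with quantile and 1 with cyclic loess normalization, 6 with the A-CREB arrays alone and 15 with the 4 arrays alone, and ran from 1 to 84 with 1 array left out. Falls of at least 2-fold in both pairs were 8 with a pseudocount of 5.5, 2 with 88, 26 with no filter and 2 with the upper 40%. The comparison with wild type called 0 to 3 genes with 1 array left out. The cause of these changes was not tested. Of the 30 largest rises, 22 passed whichever array was left out, and 10 passed under every alternative they were tested in (Npas4, Fosb, Atf3, Fos, Ptgs2, Gem, Dusp1, Ifrd1, Errfi1 and Rgs2); 10 were lost without the block, at adjusted p of 0.0755 to 0.388. Robust eBayes kept 68 of the 89 and lost 12 of the 30 (Ccn1, Inhba, Gadd45g, Btg2, Ier2, Egr2, Arc, Homer1, Junb, Tiparp, Nr4a1 and Nfil3), at adjusted p of 0.0612 to 0.394; with no intensity trend 19 of the 30 were lost. Averaging the probe sets of a gene lost Homer1 and Cldn3 (0.256 and 0.321 at the extremes).

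Differences that changed sign, none of which had passed, were Creb1 (0.015 with cyclic loess; -0.22 to 0.20 with 1 array left out, 0.046 without the replicate 2 saline array), Zbtb16 (-0.045 with probe sets averaged) and, with 1 array left out, Gabra5 (-0.33 to 0.059), Cacna1h (-0.67 to 0.028) and Gabra4 (-0.28 to 0.0015). The promoter shares are lower over tested genes than over the risen, as printed. Over the 89 risen genes the median of 18 minus 14 mg/kg in A-CREB, -0.22, was 0.13 in replicate 2 alone and ran from -0.60 to 0.16 with 1 of the 18 mg/kg arrays left out. The median of the A-CREB response minus the wild-type one, 0.20, was -0.060 in replicate 1 alone and ran from -0.14 to 0.60. The count of risen genes higher on 18 mg/kg replicate 2 was 83, and 84 with quantile and with cyclic loess normalization. Leaving out an array of a pair gave no value for changes in both pairs, and the dose comparison could not be had from the 4 arrays alone. Dim genes have little signal over background, which limits their folds.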

Other observations

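On all probe sets rather than 1 a gene, 95 rose and 2 fell of 27022 tested, and 6 of the risen had no single gene name. The 23683 of them that named 1 gene were also fitted alone. There the only tested probe sets of Eid2, Zc3h6 and Zfas1 did not pass (limma adjusted p = 0.0596, 0.0838 and 0.0920). Many risen genes did not pass there on their brightest probe set, at limma adjusted p of 0.0503 (Sertad1) to 0.131 (Dusp5). Besides these 2 they were Scg2, Crh, Dnajb1, Crem, Hspa1a, Adamts1, Arpp21, Atf4, Cd14, Dipk2a, Dusp4, Dusp6 and Emd. The rest were Fam167a, Grasp, Nts, Pcsk1, Ppp1r15a, Ppp1r3g, Rasl11b, Rheb, Slc16a1, Tcim, Tsc22d2 and Zfp36. Of 63 further probe sets of called genes with several, 53 moved the same way in both pairs and 4 the opposite way.

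The pituitary genes were followed on all arrays: 10 of 12 listed had a probe set and 3 passed the filter on dim probe sets (Gh, Pomc and Ghrhr). Prl read 291.6 on the 18 mg/kg array of replicate 2 and 281.5 on the wild-type saline array of replicate 2, and 88 at most on the others. Gh was also raised on that wild-type saline array, at 1233, where Cga read 36.4. On the A-CREB saline arrays Gh read 73.1 in replicate 1 and 126 in replicate 2, and on the 18 mg/kg array of replicate 1 it read 113.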
